A study of Mus musculus with 9 samples.

Results

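The collagen genes measured on these arrays numbered 42, out of 18194 genes in all, and were chosen by name: every gene whose single annotated symbol is Col, a number, the letter a and a number. They were read by 82 of the 45101 probe sets. A probe set is a group of short probes against 1 transcript. Where a collagen had several, as 27 did, the brightest by mean log2 intensity over the 9 arrays stood for it, and the other 15 had 1 each. Readings, differences and overlap below are those of the brightest probe set unless other probe sets are named. All 42 gene identifiers were found in the RefSeq gene table under the same symbol.

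The study profiled RNA from thymic epithelial cells sorted by a fluorescent reporter of Tslp, the gene of an epithelial cytokine. Sample titles put 3 of the 9 Affymetrix arrays in each of 3 groups, called ZsG plus, ZsG minus cTEC and ZsG minus mTEC. ZsG stands for the reporter ZsGreen, and cTEC and mTEC for cortical and medullary thymic epithelial cells. All 3 groups had the C57BL/6 background, and the protocols describe BAC transgenic mice aged 8 to 20 weeks with ZsG placed at the start codon of Tslp in the BAC, so the reporter sits on a transgene. Each array used 5 ng of total RNA, amplified with a Pico kit. For the sorting gates, the number of mice behind an array and the place of the ZsG plus cells in cortex or medulla, nothing was given in the sources used here. A label on cell type says keratinocytes for every sample, against the titles, which are followed here. Below, a difference between the ZsG minus groups is ZsG minus mTEC over ZsG minus cTEC.

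Collagens are secreted or membrane-bound proteins whose chains wind around each other into a stiff helix. Fibrillar collagens such as types I and III assemble into the cables of connective tissue and are made mainly by fibroblasts, whereas type IV forms the sheet-like network of basement membranes on which epithelia and vessels rest. Thymic epithelium lies on such a membrane along the capsule, the septa and the vessels, where mesenchymal cells are found too.

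The 7 markers of thymic epithelium summed to 111200 to 149000 in ZsG minus cTEC, 210300 to 314900 in ZsG plus and 166400 to 177000 for ZsG minus mTEC. limma called 0 of the 7, and each had every group mean above the controls described below. At an unadjusted p under 0.05, 0 to 2 of them were higher per comparison and 0 lower, beside 3.2% to 8.4% and 3.9% to 11.3% of all genes. Of 6 cortical markers, limma called 4 lower in ZsG plus and 2 lower in ZsG minus mTEC against ZsG minus cTEC, and all 6 were below it with no overlap in both other groups, beside 13.4% and 11.8% of all genes. Their summed intensity was 99540 to 132000 in ZsG minus cTEC, 6814 to 12370 in ZsG plus, and 9145 to 14810 for ZsG minus mTEC. The 5 medullary markers measured summed to 3892 to 8193, 41650 to 58230 and 45050 to 51290 in that order, with Fezf2 and Aire called higher in both groups than in ZsG minus cTEC. The ZsG plus arrays stood apart in spread: they correlated with each other at 0.614 to 0.687 over all genes, against 0.837 to 0.886 within the other groups, and the median SD of a collagen within a group was 1.47 on the log2 scale in ZsG plus, 0.75 for ZsG minus cTEC and 0.66 for ZsG minus mTEC. Their 3′ to 5′ ratio of Gapdh signal was 6.71 to 10.6, against 4.55 to 5.97 on the other arrays, and the part of this in the collagen results was not tested. Probe sets for bacterial genes, which no mouse RNA should light up, read 3.77 to 341. Where a group mean lies within that range, the size of a difference from it has no firm value. Of the 42 collagens, 17 had all 3 group means above that range, 12 had some above it and 13 had none.

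The stretches of 250 bases just before the annotated start are shown for the collagen genes whose array values are described most closely below, picked after those values were seen: Col1a2 and Col3a1, which code for chains of the interstitial fibrils, Col13a1, a membrane-spanning collagen, and Col15a1, a collagen of basement membrane zones. The sequences are from RefSeq on mouse build GRCm38.p6, written 5′ to 3′ on the strand of the gene. Col1a2 lies at chr6:4505368-4505617 on the plus strand, Col3a1 at chr1:45311288-45311537 on the plus strand, Col13a1 at chr10:61979109-61979358 on the minus strand and Col15a1 at chr4:47207762-47208011 on the plus strand. Capitals mark the TATA box letters TATAAA, the CCAAT box letters CCAAT and the GC box letters GGGCGG, searched on both strands.
Col1a2: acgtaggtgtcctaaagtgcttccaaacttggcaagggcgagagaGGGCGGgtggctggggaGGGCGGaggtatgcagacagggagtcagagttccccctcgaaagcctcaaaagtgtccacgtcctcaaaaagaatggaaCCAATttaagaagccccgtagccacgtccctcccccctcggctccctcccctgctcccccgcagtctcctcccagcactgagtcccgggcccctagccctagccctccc
Col3a1: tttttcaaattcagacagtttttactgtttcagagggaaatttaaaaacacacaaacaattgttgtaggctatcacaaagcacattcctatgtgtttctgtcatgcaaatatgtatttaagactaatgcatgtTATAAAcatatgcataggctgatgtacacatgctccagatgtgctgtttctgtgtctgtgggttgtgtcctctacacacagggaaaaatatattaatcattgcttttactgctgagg
Col13a1: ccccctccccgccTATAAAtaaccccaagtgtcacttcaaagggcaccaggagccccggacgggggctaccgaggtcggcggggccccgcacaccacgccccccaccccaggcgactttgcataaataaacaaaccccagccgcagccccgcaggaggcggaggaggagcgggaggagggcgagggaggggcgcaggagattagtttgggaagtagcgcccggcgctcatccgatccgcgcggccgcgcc
Col15a1: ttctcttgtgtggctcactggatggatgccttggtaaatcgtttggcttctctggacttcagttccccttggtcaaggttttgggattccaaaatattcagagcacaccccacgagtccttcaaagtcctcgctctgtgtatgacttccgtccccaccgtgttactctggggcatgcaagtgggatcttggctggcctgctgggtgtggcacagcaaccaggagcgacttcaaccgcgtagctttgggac
The stretch before Col1a2 holds CCAAT 109 bases before the start and GGGCGG 205 and 188 bases before it. Before Col3a1 and Col13a1 the search found TATAAA, 117 and 237 bases from the start, and before Col15a1 it found none of these letters. A match is a run of letters only. Of the 42 collagens, 33 had an entry in the promoter table. Among these, 5 (15.2%) held TATAAA, 13 (39.4%) CCAAT and 20 (60.6%) GGGCGG, beside 12.4%, 33.8% and 32.7% of the 32851 stretches of the same length over all genes. A collagen counted if any of its stretches held the letters, with 36 stretches for the 33 genes. The shares over all genes are of single stretches, so the units differ in a way that can raise the collagen shares.

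No collagen differed between groups past an adjusted p of 0.05 in limma's test over all 18194 genes, with all 9 arrays fitted together, in any of the 3 comparisons. The lowest adjusted p among collagens was 0.0681, for Col13a1, in ZsG plus against ZsG minus cTEC. By their brightest probe sets, the type I and III fibril genes were lower in every ZsG minus mTEC array than in any ZsG minus cTEC array, by 2.95- to 12.5-fold, yet also missed the threshold. The other probe sets of Col1a2 overlapped between these groups. The type IV genes Col4a1 and Col4a2 overlapped between all groups. When each of the 34958 probe sets with 1 symbol was tested by itself, 2 collagen probe sets passed: a second one of Col6a2, lower in ZsG plus than in both other groups, and a second one of Col3a1, lower in ZsG minus mTEC than in ZsG minus cTEC. Of all these probe sets, 0.235% were called in ZsG plus against ZsG minus mTEC, 1.53% against ZsG minus cTEC and 0.123% between the ZsG minus groups. The probe set calls were not recomputed with single arrays left out.

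Set against ZsG minus mTEC, ZsG plus had 0 of the 42 collagens called by limma, beside 0.22% of all genes tested. At an unadjusted p under 0.05 there was 1 higher collagen, Col13a1 (2.38%, against 3.2% of all genes), and there were 5 lower ones, Col5a1, Col5a2, Col6a2, Col11a2 and Col15a1 (11.9%, against 10.2%). The 3 arrays of each group did not overlap for 1 higher collagen (against 5.77% of genes) and for 7 lower ones, Col4a6, Col5a1, Col5a2, Col9a3, Col11a2, Col15a1 and Col19a1, or 16.7% (against 12.3%). These shares are near those of all genes, so they are no result about collagens as a family.

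Set against ZsG minus cTEC, ZsG plus likewise had 0 collagens called by limma, beside 1.74% of all genes. At an unadjusted p under 0.05, Col13a1 and Col25a1 were higher (4.76%, against 7.44% of all genes) and Col1a2, Col3a1, Col4a5, Col5a2, Col6a2 and Col15a1 were lower (14.3%, against 11.3%). Non-overlapping arrays were seen for 1 higher (Col13a1) and 5 lower collagens (Col3a1, Col4a5, Col5a2, Col6a2 and Col15a1), 2.38% and 11.9%, against 9.9% and 13.4%. Between the ZsG minus groups the test again called 0, beside 0.627% of genes. Here the unadjusted count was 4 higher (Col6a4, Col9a2, Col11a2 and Col17a1, 9.52% against 8.4%) and 2 lower (Col1a2 and Col3a1, 4.76% against 3.9%). The arrays of these groups did not overlap for 7 higher (Col5a1, Col6a4, Col8a1, Col9a2, Col11a1, Col17a1 and Col23a1) and 4 lower collagens (Col1a1, Col1a2, Col3a1 and Col4a5), 16.7% and 9.52%, against 16.6% and 11.8% of all genes.

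**Figure D1:**
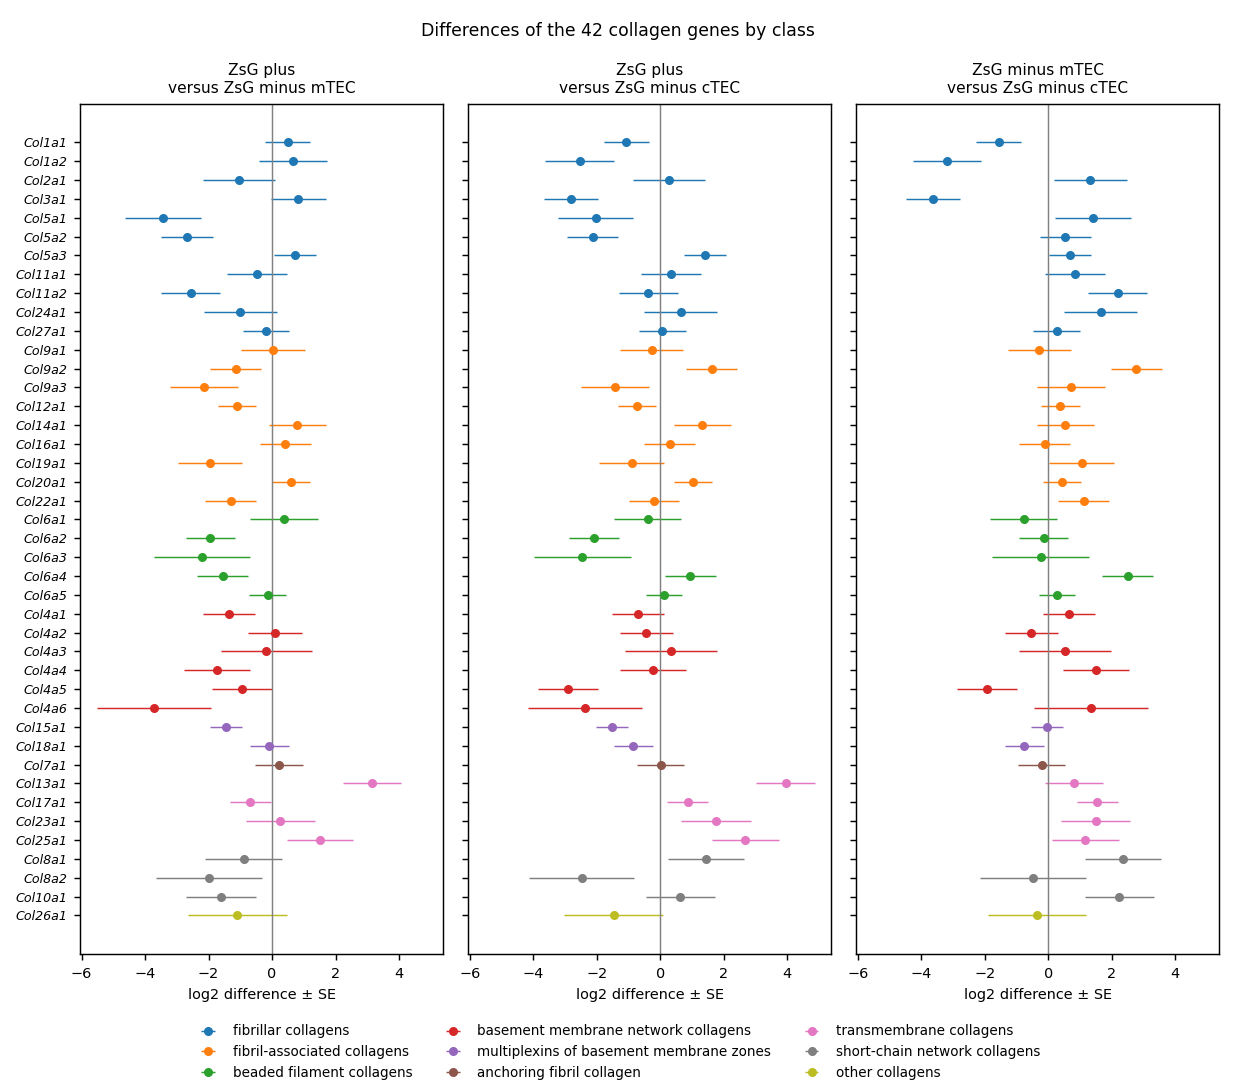
Log2 difference of each of the 42 collagen genes (points) with its standard error from limma (bars), 1 panel per comparison, coloured by collagen class. Col1a1, Col1a2 and Col3a1 lie left of 0 in the right-hand panel, at −1.56, −3.19 and −3.64, and Col13a1 lies farthest right in the other panels, at 3.14 and 3.95.

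The precision behind these counts was low. The median standard error of a collagen difference was 0.92 on the log2 scale, with n = 3 arrays per group in every comparison. The fit used 1 spread per gene for all groups, so the wide ZsG plus spread also entered the comparison of the ZsG minus groups. Fitted with only the 6 ZsG minus arrays, limma called Col3a1 (−3.64 ± 0.46, adjusted p = 0.0225) and Col1a2 (−3.19 ± 0.59, adjusted p = 0.0479) lower. It also called Col9a2 higher there (2.77 ± 0.495, adjusted p = 0.045), among 548 of all genes. The whole distribution also shifted: the median gene differed by −0.33 for ZsG plus against ZsG minus mTEC, by −0.14 against ZsG minus cTEC and by 0.09 between the ZsG minus groups. The median collagen stood at −0.92, −0.24 and 0.54 in the same order, with 14, 19 and 27 of 42 above 0, beside 39%, 46.3% and 53.9% of all genes. Relative to the median gene it lay at −0.60, −0.11 and 0.45. Under quantile normalization these relative medians were −0.31, 0.12 and 0.50, so the sign of the second turned.

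The type I and III collagens, the main fibril builders of connective tissue, were highest in ZsG minus cTEC. Col3a1, the single chain of type III collagen, read 10780, 15198 and 12779 in ZsG minus cTEC, 1262, 1441 and 595 in ZsG minus mTEC and 1265, 683 and 7064 in ZsG plus. Every ZsG minus cTEC array was above every other array, and ZsG plus replicate 3 stood far above replicates 1 and 2. The ZsG minus groups differed by −3.64 ± 0.86 (log2 ± SE), or 12.5-fold lower, with a limma adjusted p of 0.103. The confidence interval at 95% ran from −5.57 to −1.71. ZsG plus differed from ZsG minus cTEC by −2.81 ± 0.86 (adjusted p = 0.132) and from ZsG minus mTEC by 0.83 ± 0.86 (adjusted p = 0.691).

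Col1a2, which codes for the second chain of type I collagen, followed the same order of groups. It read 6315, 9810 and 14227 in ZsG minus cTEC, 1852, 1167 and 537 in ZsG minus mTEC and 921, 479 and 10136 in ZsG plus. The ZsG minus groups did not overlap, while ZsG plus replicate 3 lay inside the ZsG minus cTEC range and replicates 1 and 2 inside or below the ZsG minus mTEC range. The difference was −3.19 ± 1.08 between the ZsG minus groups (adjusted p = 0.249) and −2.54 ± 1.08 for ZsG plus against ZsG minus cTEC (adjusted p = 0.246). Against ZsG minus mTEC it was 0.65 ± 1.08 (adjusted p = 0.815).

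Col1a1, the main chain of type I collagen, showed a smaller gap. Its arrays read 5235, 3638 and 6074 in ZsG minus cTEC, 1031, 2536 and 1729 in ZsG minus mTEC and 1187, 1805 and 5897 in ZsG plus. Again the ZsG minus groups were separate and ZsG plus replicate 3 sat with ZsG minus cTEC. The differences were −1.56 ± 0.71 between the ZsG minus groups (adjusted p = 0.421), −1.06 ± 0.71 for ZsG plus against ZsG minus cTEC (adjusted p = 0.457) and 0.49 ± 0.71 for ZsG plus against ZsG minus mTEC (adjusted p = 0.784).

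Replicate 3 of ZsG plus thus set the ZsG plus values of these 3 genes. Without it, limma called Col3a1 (−3.78, adjusted p = 0.0293) and Col1a2 (−3.85, adjusted p = 0.038) lower against ZsG minus cTEC. Its removal also turned the sign against ZsG minus mTEC, to −0.14 for Col3a1, −0.66 for Col1a2 and −0.18 for Col1a1. The SD of ZsG plus was 1.75, 2.32 and 1.20 on the log2 scale for Col3a1, Col1a2 and Col1a1, so with all 3 arrays no order between ZsG plus and ZsG minus mTEC can be read.

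**Figure D2:**
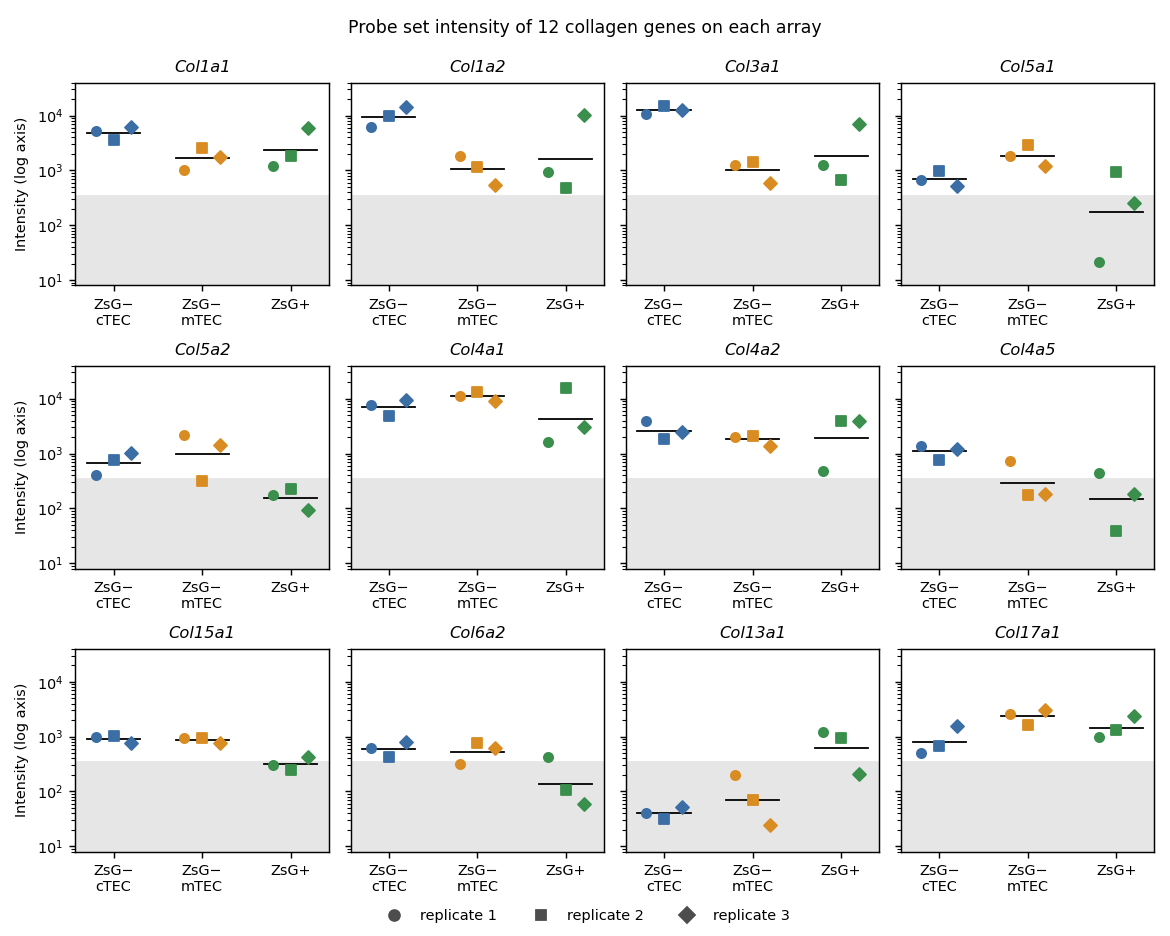
Probe set intensity (log axis) of 12 collagen genes on each of the 9 arrays, coloured by group, with marker shape for the replicate, a line at each group's geometric mean and a grey band up to the highest bacterial control reading, 341. For Col1a1, Col1a2 and Col3a1 the ZsG minus cTEC arrays lie above the ZsG minus mTEC arrays and ZsG plus replicate 3 lies well above its group, while Col15a1 is tight within groups and lowest in ZsG plus.

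The other probe sets of these genes gave a mixed picture of that array. In ZsG plus the second probe set of Col1a1 read 2075, 1766 and 1147, and the others of Col1a2 read 115, 159 and 215, and 7.68, 19.3 and 7.89. For Col3a1 the second probe set read 560, 169 and 502 in ZsG minus cTEC, 1.23, 7.44 and 2.09 in ZsG minus mTEC and 55.2, 82.4 and 164 in ZsG plus. ZsG plus replicate 3 was thus lowest of its group by the second Col1a1 probe set, and highest by the second Col3a1 probe set and by 1 of the others of Col1a2, by smaller steps than on the brightest probe sets. With every probe set tested, this second Col3a1 probe set was the one called lower in ZsG minus mTEC (−7.08 ± 0.85, limma adjusted p = 0.0391). Its ZsG minus mTEC readings lie within the control range, so the size of that difference has no firm value. The second Col1a1 probe set was also lower in ZsG minus mTEC than in ZsG minus cTEC without overlap (−1.24 ± 0.64). The others of Col1a2 overlapped between the ZsG minus groups, at −1.81 ± 0.98 and 0.79 ± 0.88, the latter with all readings inside the control range.

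The remaining fibrillar collagens did not share this pattern. Col5a1 and Col5a2 code for chains of type V collagen, which starts fibrils and limits their width. Col5a2 read 401, 768 and 1037 in ZsG minus cTEC, 2190, 310 and 1443 in ZsG minus mTEC and 176, 227 and 94.8 in ZsG plus, where it stayed inside the control range. Its ZsG plus arrays lay below all others, by −2.67 ± 0.82 against ZsG minus mTEC (adjusted p = 0.22) and −2.13 ± 0.82 against ZsG minus cTEC (adjusted p = 0.207). Col5a1 read 683, 971 and 529 in ZsG minus cTEC, 1813, 2957 and 1213 in ZsG minus mTEC and 21.5, 932 and 256 in ZsG plus. On this probe set, the brightest, every ZsG minus mTEC array was above all others, and the SD in ZsG plus was 2.76. ZsG plus differed from ZsG minus mTEC by −3.44 ± 1.19 for Col5a1 (adjusted p = 0.274). The other probe sets of Col5a1 overlapped between all groups. Between the ZsG minus groups they gave −0.14 and −0.94, against 1.40 by the brightest.

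Col5a3, a further type V chain, read 623, 468 and 1451 in ZsG minus cTEC, 2035, 773 and 1088 in ZsG minus mTEC and 1334, 2052 and 2854 in ZsG plus. These ranges overlapped, and the largest difference was 1.40 ± 0.66, ZsG plus over ZsG minus cTEC (adjusted p = 0.294). Col2a1, the main cartilage collagen, read 2234, 133 and 1952 in ZsG minus cTEC, 2412, 1501 and 2535 in ZsG minus mTEC and 2257, 1384 and 334 in ZsG plus. Col27a1, a further fibrillar collagen of cartilage, read 2256, 2513 and 896 in ZsG minus cTEC, 1183, 2862 and 2576 in ZsG minus mTEC and 1189, 4103 and 1190 in ZsG plus. Neither gene separated any groups by its brightest probe set. The second probe set of Col27a1 read 1707, 5315 and 1784 in ZsG plus, above every array of the other groups. With all probe sets tested, ZsG plus differed by 1.54 ± 0.75 from ZsG minus mTEC and by 1.71 ± 0.75 from ZsG minus cTEC (limma adjusted p = 0.406 and 0.268). The other 3 members of this class, Col11a1, Col11a2 and Col24a1, had every group mean inside the control range. Over the 11 fibrillar genes the median difference was −0.48 for ZsG plus against ZsG minus mTEC, −0.37 against ZsG minus cTEC and 0.67 between the ZsG minus groups. Of the 11, 8 were above 0 between the ZsG minus groups, beside 53.9% of all genes, and limma called 0 of them. Of the 8, Col5a1 and Col11a1 had no overlap (18.2% of the 11, against 16.6% of all genes), Col11a1, Col11a2 and Col24a1 had every group mean in the control range, and Col5a2 and Col27a1 changed sign under some settings. Under quantile normalization and median centring the medians of both ZsG plus comparisons turned positive, to at most 0.15, and with single arrays left out the first ranged from −0.79 to 0.10.

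Col3a1 and Col5a2 are neighbours on chromosome 1. Against ZsG minus cTEC, both were lower in ZsG plus, at −2.81 and −2.13. Between the ZsG minus groups they differed by −3.64 and 0.54, so neighbours on a chromosome did not go together there.

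Type IV collagen, the sheet former of basement membranes, did not separate the groups by its common chains. Col4a1 read 7534, 4862 and 9547 in ZsG minus cTEC, 11214, 13179 and 8932 in ZsG minus mTEC and 1646, 15686 and 3088 in ZsG plus. Col4a2, its partner chain, read 3868, 1836 and 2514 in ZsG minus cTEC, 1988, 2127 and 1392 in ZsG minus mTEC and 482, 3858 and 3877 in ZsG plus. By these probe sets ZsG plus replicate 1 was the lowest of all 9 arrays for both genes, and for Col4a1 replicate 2 was the highest. The ZsG minus groups differed by 0.64 ± 0.82 for Col4a1 (adjusted p = 0.876, interval −1.21 to 2.48) and −0.53 ± 0.84 for Col4a2 (adjusted p = 0.914, interval −2.43 to 1.36). These intervals, at 95%, reach past 1 log2 unit on both sides of 0. ZsG plus against ZsG minus mTEC gave −1.35 ± 0.82 and 0.10 ± 0.84. The second Col4a1 probe set ordered the ZsG plus arrays otherwise, at 1538, 511 and 75.1, with replicate 3 the lowest of all 9 arrays. It overlapped between all groups, with ZsG plus at −1.99 ± 0.99 against ZsG minus mTEC and −1.76 ± 0.99 against ZsG minus cTEC. The genes lie on opposite strands of chromosome 8, and by their RefSeq starts the first 22 bases of their transcripts overlap.

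Col4a5 and Col4a6 are neighbours on the X chromosome and code for chains that replace the common ones in some basement membranes. Col4a5 read 1382, 778 and 1214 in ZsG minus cTEC, 721, 176 and 181 in ZsG minus mTEC and 443, 39.2 and 185 in ZsG plus. Every ZsG minus cTEC array lay above all others. The differences were −1.94 ± 0.94 between the ZsG minus groups (adjusted p = 0.457) and −2.89 ± 0.94 for ZsG plus against ZsG minus cTEC (adjusted p = 0.152). Col4a6 read 881, 5.80 and 553 in ZsG minus cTEC, 471, 183 and 547 in ZsG minus mTEC and 137, 9.36 and 15.8 in ZsG plus. Its ZsG plus arrays lay below the ZsG minus mTEC arrays, at −3.73 ± 1.80 (adjusted p = 0.411), and replicate 2 of ZsG minus cTEC read only 5.80. The ZsG plus mean was 27.3, within the control range, so this size has no firm value. The second Col4a6 probe set gave 1.11 ± 1.25 in that comparison. Between the ZsG minus groups it gave −4.31 ± 1.25 without overlap, against 1.35 ± 1.80 by the brightest. No reading of this second probe set passed the control range. Col4a3 had no group mean above the controls. By its brightest probe set Col4a4 overlapped throughout, with a largest difference of −1.73 ± 1.04 for ZsG plus against ZsG minus mTEC. Over the 6 type IV genes the median difference was −1.15 for ZsG plus against ZsG minus mTEC, −0.57 against ZsG minus cTEC and 0.58 between the ZsG minus groups. With single arrays left out the last turned sign (−0.87 to 1.05), and the second ranged from −1.27 to −0.31.

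The type I and III genes and the Col4a1 and Col4a2 pair can be set against each other within an array, which cancels a scale shared by the whole array. This contrast was chosen after the values were seen and has no test. The mean log2 of Col1a1, Col1a2 and Col3a1 minus that of Col4a1 and Col4a2 was 0.39, 1.45 and 1.08 in ZsG minus cTEC, −1.82, −1.71 and −2.10 in ZsG minus mTEC, and 0.32, −3.21 and 1.12 in ZsG plus. The level of this number has no meaning across probe sets, and only its change between arrays can be read. It uses the brightest probe sets only, and the second Col4a1 probe set ordered the ZsG plus arrays otherwise. The ZsG minus groups were apart, with means of 0.97 ± 0.54 and −1.88 ± 0.20 (SD, n = 3), while ZsG plus spread over both, at −0.59 ± 2.30 (SD, n = 3).

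Fibroblasts are the usual makers of type I and III collagen. Of 12 fibroblast markers limma called 1, Dcn, lower than in ZsG minus cTEC in both other groups, and at an unadjusted p under 0.05 there were 3 lower in ZsG minus mTEC and 5 lower in ZsG plus, with 0 higher. Of all genes, 3.9% and 11.3% were lower and 8.4% and 7.44% higher at that p in these comparisons, and limma called 0.627% and 1.74%. The median difference of the 12 markers was −2.44 between the ZsG minus groups and −2.29 for ZsG plus against ZsG minus cTEC. Pdgfrb differed by 1.27 and Gsn by −0.016 between the ZsG minus groups. The summed intensity of these 12 markers was 51850 to 63100 in ZsG minus cTEC, 23290 to 24170 among ZsG minus mTEC arrays and 24810 to 37390 in ZsG plus, with the highest ZsG plus value on replicate 3. Gsn, which epithelial cells express too, made up a large part of the sum, at 13127, 13829 and 14898 on the ZsG minus mTEC arrays. Thy1, also bright, read 12785, 8748 and 13896 in ZsG minus cTEC, 5698, 2842 and 2887 in ZsG minus mTEC and 3601, 2437 and 30.2 in ZsG plus. How much of the Thy1 signal came from thymocytes, whose markers are given below, was not tested. In ZsG minus mTEC 9 of the 12 markers lay below ZsG minus cTEC with no overlap, against 11.8% of all genes. In ZsG plus 5 were lower than in ZsG minus cTEC with no overlap and 1 was higher, against 13.4% and 9.9% of genes. The group mean lay within the control range for 2 of the 12 in ZsG minus cTEC, 4 in ZsG plus and 5 for ZsG minus mTEC, and none was at 0.

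On single fibroblast markers, ZsG plus replicate 3 was mixed. Pdgfra, a receptor that defines many fibroblasts, read 733, 732 and 342 in ZsG minus cTEC, 83.1, 82.0 and 164 in ZsG minus mTEC and 251, 179 and 1033 in ZsG plus. Dpt, a matrix protein of fibroblasts, had ZsG plus readings of 13.2, 2403 and 5993, and Pi16 of 660, 75.5 and 2425. Replicate 3 was the highest of the 3 for all of these. In contrast, Dcn had 1264, 987 and 1323 and Lum 134, 6.61 and 12.4 there, where replicate 3 did not stand above the others in this way. The part of fibroblast RNA in the type I and III results was not tested, and in such bulk samples fewer cells of a type and less RNA per cell cannot be told apart.

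**Figure D3:**
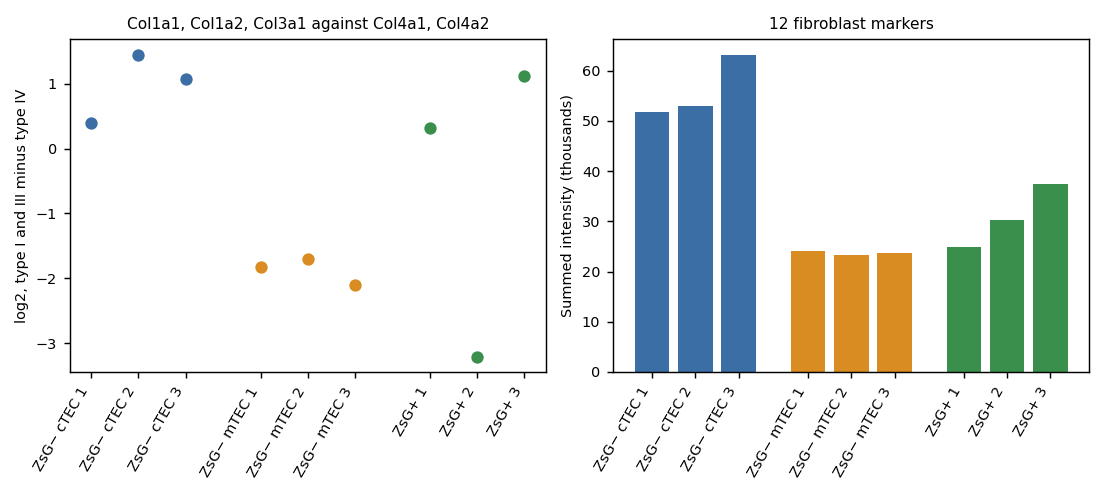
Left, for each array, the mean log2 intensity of Col1a1, Col1a2 and Col3a1 minus that of Col4a1 and Col4a2; right, the summed intensity of 12 fibroblast markers on each array. The ZsG minus cTEC arrays lie at 0.39 to 1.45 and the ZsG minus mTEC arrays at −2.10 to −1.71 on the left, and ZsG plus replicate 3 is the highest array of its group in both panels.

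Markers of other cells differed as well. Of the 6 thymocyte markers measured, all 6 lay below ZsG minus cTEC with no overlap in ZsG minus mTEC (beside 11.8% of all genes) and 5 in ZsG plus (beside 13.4%). limma called Cd8a lower in both and Dntt lower in ZsG plus. Their sum was 36900 to 53100 in ZsG minus cTEC, 4148 to 7740 for ZsG minus mTEC and 3013 to 6760 for ZsG plus. The sum of 10 endothelial markers was 3581 to 3981, 2167 to 2768 and 2127 to 3113 in the same order. For 5 mesothelial markers it was 8155 to 15290, 5102 to 7291 and 3755 to 10080, and among them Upk3b was called lower in ZsG plus than in both other groups (−4.48 ± 0.63 and −7.83 ± 0.63, limma adjusted p = 0.0409 and 0.00781), with its ZsG plus readings of 53.6, 22.7 and 23.0 inside the control range. The 8 pericyte and smooth muscle markers summed to 10440 to 17460, 31150 to 36240 and 22560 to 37980, lowest in ZsG minus cTEC. Among them limma called Rgs5 higher (2.82 ± 0.53, adjusted p = 0.0414) and Tagln lower (−5.57 ± 0.57, adjusted p = 0.00781) in ZsG plus against ZsG minus cTEC, and Cnn1 higher between the ZsG minus groups (5.46 ± 0.90, adjusted p = 0.0451). Tagln in ZsG plus and Cnn1 in ZsG minus cTEC were inside the control range, so these sizes have no firm value. The 6 leukocyte markers summed to 109200 to 142500, 140600 to 167800 and 198400 to 332600, mostly through Cd74, which epithelium with antigen-presenting function expresses too, and limma called 0 of them in any comparison. Their counts at an unadjusted p under 0.05 were 0, 2 and 2 for ZsG plus against ZsG minus mTEC, against ZsG minus cTEC and between the ZsG minus groups. Beside these stand shares of all genes of 3.2%, 7.44% and 8.4% higher and 10.2%, 11.3% and 3.9% lower. The part of these cells in the collagen values was not tested.

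Col15a1 and Col18a1, the multiplexins, lie in basement membrane zones and release fragments that act on vessels. Col15a1 read 969, 1005 and 766 in ZsG minus cTEC, 942, 943 and 758 in ZsG minus mTEC and 309, 246 and 422 in ZsG plus. The ZsG minus groups overlapped almost fully, and every ZsG plus array lay below every other array. Its group SDs were 0.21, 0.18 and 0.39 on the log2 scale. The ZsG plus mean was 2.76-fold lower than ZsG minus mTEC (−1.47 ± 0.50, adjusted p = 0.273) and 2.86-fold lower than ZsG minus cTEC (−1.51 ± 0.50, adjusted p = 0.157). Between the ZsG minus groups the difference was −0.05 ± 0.50, with an interval of −1.18 to 1.08. The ZsG plus mean was 317, within the control range, so the sizes of these folds have no firm value. Col15a1 has 1 probe set, so no second reading of it exists here. Col18a1 overlapped between all groups, at 1023, 788 and 1559 in ZsG minus cTEC, 345, 860 and 878 in ZsG minus mTEC and 408, 650 and 809 in ZsG plus.

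The transmembrane collagens stay anchored in the cell membrane and link cells to the matrix. Col13a1 read 40.6, 31.5 and 51.0 in ZsG minus cTEC, 202, 69.3 and 24.9 in ZsG minus mTEC and 1225, 956 and 205 in ZsG plus. Every ZsG plus array was above both groups: the lowest was at 205, against 51.0 for the highest ZsG minus cTEC array and, only just below it, 202 for the highest ZsG minus mTEC array. Of all 9 arrays only ZsG plus replicates 1 and 2 passed the control range, so the sizes of the differences have no firm value. ZsG plus exceeded ZsG minus cTEC by 3.95 ± 0.92 (adjusted p = 0.0681, interval 1.88 to 6.02) and ZsG minus mTEC by 3.14 ± 0.92 (adjusted p = 0.206, interval 1.07 to 5.21). Without ZsG plus replicate 3 the first difference was called, at 4.75 (adjusted p = 0.0375).

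Col17a1, the collagen of hemidesmosomes that tie basal epithelial cells to their basement membrane, read 494, 669 and 1529 in ZsG minus cTEC, 2589, 1623 and 3000 in ZsG minus mTEC and 982, 1309 and 2372 in ZsG plus. Every ZsG minus mTEC array lay above every ZsG minus cTEC array, at 1.55 ± 0.64 (adjusted p = 0.367), and ZsG plus overlapped both. Col23a1 and Col25a1 had all group means within the control range, and their ZsG plus arrays spread widely, at 49.2, 1390 and 294 for Col23a1 and 68.2, 463 and 562 for Col25a1. All 4 transmembrane genes had positive differences in both comparisons with ZsG minus cTEC, against 46.3% of all genes for ZsG plus and 53.9% for ZsG minus mTEC. Their median was 2.21 for ZsG plus and 1.32 for ZsG minus mTEC. Against ZsG minus mTEC the ZsG plus median was 0.89, with 3 of 4 above 0, and it turned to −0.47 with the mean of all probe sets of a gene.

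Type VI collagen forms beaded filaments around cells. Col6a2, one of its main chains, read 607, 430 and 781 in ZsG minus cTEC, 319, 763 and 615 in ZsG minus mTEC and 418, 108 and 58.4 in ZsG plus. ZsG plus lay below ZsG minus cTEC without overlap (−2.09 ± 0.78, adjusted p = 0.197) and overlapped ZsG minus mTEC (−1.94 ± 0.78, adjusted p = 0.338). Without ZsG plus replicate 1 the first difference was called, at −2.89 (adjusted p = 0.0498). Its second probe set read 586, 802 and 1569 in ZsG minus cTEC, 720, 874 and 668 in ZsG minus mTEC and 15.5, 21.7 and 24.1 in ZsG plus. Every ZsG plus array was far below every other array. With all probe sets tested, limma called it lower in ZsG plus, at −5.49 ± 0.59 against ZsG minus cTEC (adjusted p = 0.00905) and −5.22 ± 0.59 against ZsG minus mTEC (adjusted p = 0.0222). The ZsG plus readings are within the control range, so these sizes have no firm value either.

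Col6a1, the partner chain and chromosomal neighbour of Col6a2, did not do the same, at 1812, 1252 and 473 in ZsG minus cTEC, 524, 671 and 605 in ZsG minus mTEC and 917, 146 and 3506 in ZsG plus. Col6a4 read 92.9, 57.7 and 147 in ZsG minus cTEC, 275, 1126 and 459 in ZsG minus mTEC and 260, 312 and 68.5 in ZsG plus, and its ZsG minus mTEC arrays were above the ZsG minus cTEC arrays without overlap (2.50 ± 0.80, adjusted p = 0.222). The ZsG minus cTEC mean of Col6a4 was 92.4, within the control range, so this size has no firm value. Col6a3 and Col6a5 had no group mean above the controls. The 5 type VI genes had medians of −1.56, −0.40 and −0.15 for ZsG plus against ZsG minus mTEC, against ZsG minus cTEC and between the ZsG minus groups. With single arrays left out the second and the last turned sign, at −1.47 to 0.37 and −0.41 to 0.38.

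Fibril-associated collagens decorate the surface of fibrils, and 9 were measured. Col20a1 read 926, 592 and 520 in ZsG minus cTEC, 686, 1108 and 928 in ZsG minus mTEC and 1832, 722 and 1863 in ZsG plus, with overlap throughout. Col19a1 read 2822, 179 and 971 in ZsG minus cTEC, 1868, 1719 and 1357 in ZsG minus mTEC and 311, 1128 and 216 in ZsG plus, with ZsG plus below ZsG minus mTEC on every array (−1.95 ± 1.02, adjusted p = 0.439). Col12a1, Col14a1 and Col16a1 had all 3 group means above the controls and overlapped in every comparison by their brightest probe sets. Another Col14a1 probe set read 264, 242 and 54.3 in ZsG plus, inside the control range and below every other array (−2.80 ± 0.73 and −1.94 ± 0.73). The brightest gave 0.79 and 1.33, and a further one 0.33 and 0.35. Other Col12a1 probe sets gave −1.08 and −2.74 without overlap against ZsG minus mTEC, and 0.44 with overlap. Col9a2 was higher in ZsG minus mTEC than ZsG minus cTEC without overlap (2.77 ± 0.80, adjusted p = 0.173), with its group means inside the control range. The other 3 genes were Col9a1 and Col9a3, with no group mean above the controls, and Col22a1, which overlapped in all comparisons by its brightest probe set. The class medians were −1.11, −0.19 and 0.54 for ZsG plus against ZsG minus mTEC, against ZsG minus cTEC and between the ZsG minus groups. The second kept its sign in 10 of 19 settings, at −0.68 to 0.81 with single arrays left out, and the first was 0.42 at its highest over the settings.

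Among the short-chain collagens, Col8a1, a component of vessel and corneal membranes, read 145, 264 and 10.9 in ZsG minus cTEC, 628, 274 and 316 in ZsG minus mTEC and 109, 119 and 643 in ZsG plus. The ZsG minus mTEC arrays were all above the ZsG minus cTEC arrays (2.34 ± 1.20, adjusted p = 0.493), the lowest only just, at 274 against 264. The ZsG minus cTEC mean was 74.7, within the control range, so this size has no firm value. Its other probe sets overlapped between these groups, at −1.24 ± 0.95 and 3.96 ± 2.04. Col8a2 and Col10a1, the hypertrophic cartilage collagen, overlapped in all comparisons. Col7a1, which forms the anchoring fibrils under skin epithelium, read 419, 290 and 889 in ZsG minus cTEC, 546, 203 and 635 in ZsG minus mTEC and 723, 663 and 230 in ZsG plus, with differences of at most 0.22 ± 0.74. Col26a1 had no group mean above the controls.

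Chains that assemble with each other or in the same fibrils were compared in 9 pairs, of which 3 had 1 direction in all 3 comparisons and 6 did not. Col1a1 and Col1a2 differed in the same direction in all 3 comparisons, for example by −1.56 and −3.19 between the ZsG minus groups. Col5a1 and Col5a2 also shared their direction in all 3, with −3.44 and −2.67 for ZsG plus against ZsG minus mTEC. Col4a1 and Col4a2 did not, at 0.64 and −0.53 between the ZsG minus groups. The comparisons share arrays, so their signs are not independent. These directions are of the brightest probe sets. Between the ZsG minus groups the other Col5a1 probe sets gave −0.14 and −0.94, and Col5a2 ranged from −0.032 to 1.38 with an array left out. For ZsG plus against ZsG minus mTEC the other Col1a2 probe sets gave −0.84 and −2.23, against 0.65 by the brightest.

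Of the 27 collagens with several probe sets, all of a gene's probe sets had 1 direction for 11 (40.7%) in ZsG plus against ZsG minus mTEC, 15 (55.6%) against ZsG minus cTEC and 15 (55.6%) between the ZsG minus groups. Over all 9012 genes with several probe sets the shares were 43.9%, 52.5% and 53.5%. Besides Col3a1 and Col6a2, Col5a2 had a second probe set with a larger difference, at 3.28, 11.1 and 39.5 in ZsG plus against 601, 142 and 585 in ZsG minus cTEC (−5.03 ± 1.11, limma adjusted p = 0.0601 with all probe sets tested). Those ZsG plus readings are deep inside the control range, so the size and its rank against the brightest probe set have no firm value.

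**Figure D4:**
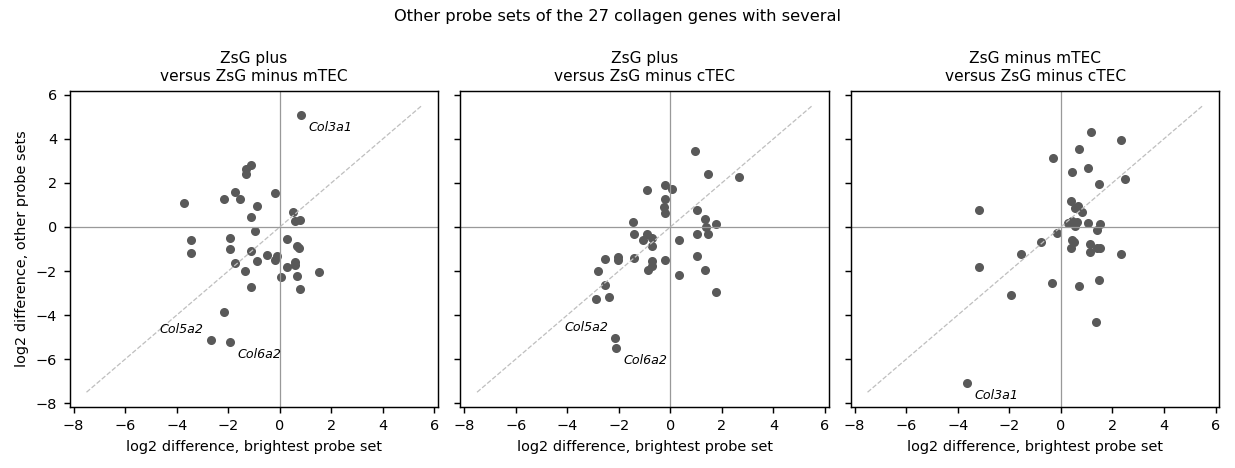
Log2 difference of each collagen's brightest probe set (horizontal) against that of its other probe sets (vertical), 1 panel per comparison, for the 27 collagens with several; the dashed line marks equal differences. Many points lie in quadrants of opposite sign, and the named second probe sets of Col3a1 (−7.08), Col5a2 (−5.03 and −5.14) and Col6a2 (−5.49 and −5.22) lie farther from 0 than the brightest probe set of the same gene, each with 1 side of the difference inside the control range.

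Collagen output also depends on enzymes that modify, cut and link its chains. Of 18 measured modifying enzymes and chaperones, limma called 1 lower and 0 higher in ZsG plus against ZsG minus cTEC, 1 lower between the ZsG minus groups and 0 in ZsG plus against ZsG minus mTEC, where 1 was higher and 1 lower at an unadjusted p under 0.05. Among all genes, limma called 1.74%, 0.627% and 0.22% in that order, and 3.2% were higher and 10.2% lower at that p in the last. Serpinh1, the collagen chaperone HSP47, read 9715, 5444 and 8583 in ZsG minus cTEC, 872, 3299 and 1825 in ZsG minus mTEC and 162, 31.2 and 293 in ZsG plus. It was called lower in ZsG plus against ZsG minus cTEC (−6.08 ± 0.89, adjusted p = 0.0225), with the ZsG plus arrays inside the control range, so the size has no firm value. Colgalt2, which adds galactose to collagen, read 441, 251 and 449 in ZsG minus cTEC, 20.9, 7.66 and 13.3 in ZsG minus mTEC and 146, 89.6 and 45.3 in ZsG plus, and was called lower between the ZsG minus groups (−4.84 ± 0.66, adjusted p = 0.0324), with its ZsG minus mTEC arrays inside the control range. The brightest members, Ppib and P4hb, differed by −0.29 ± 0.53 and 0.12 ± 0.53 in the same comparison as Serpinh1 and overlapped. Median differences of the list were −0.17 for ZsG plus against ZsG minus mTEC, −0.67 against ZsG minus cTEC and −0.08 between the ZsG minus groups, beside −0.33, −0.14 and 0.09 for all genes.

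None of the 10 measured genes of procollagen processing and crosslinking was called by limma, and at an unadjusted p under 0.05 there were 0 higher in any comparison and 2, 4 and 1 lower (ZsG plus against ZsG minus mTEC, against ZsG minus cTEC, and between the ZsG minus groups). The shares of all genes lower at that p were 10.2%, 11.3% and 3.9% in that order. The medians of this list were −0.49, −1.40 and −0.15. Of its brightest, Tgm2 had ZsG plus readings of 5781, 6280 and 31064, with replicate 3 far above the rest, and Loxl3 of 2755, 8188 and 497. Among 9 collagen receptors, Ddr2, a kinase that senses fibrillar collagen, was called lower in ZsG plus. It read 539, 623 and 2531 in ZsG minus cTEC, 369, 567 and 167 in ZsG minus mTEC and 38.0, 27.5 and 7.58 in ZsG plus (−5.57 ± 0.88 against ZsG minus cTEC, adjusted p = 0.0266), the latter inside the control range. Ddr1 and Itgb1, the brightest receptors, differed by −1.81 ± 0.61 and −1.43 ± 0.57 and were not called. The medians of the 9 receptors were −0.49, −1.81 and −1.13.

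Among 11 genes of collagen degradation, Mmp2, a gelatinase typical of mesenchymal cells, was called lower in ZsG plus. Its values were 1399, 806 and 1420 in ZsG minus cTEC, 187, 255 and 118 in ZsG minus mTEC and 47.9, 115 and 121 in ZsG plus (−3.74 ± 0.61 against ZsG minus cTEC, adjusted p = 0.0287), and all its readings outside ZsG minus cTEC were inside the control range. The inhibitors Timp3 and Timp2 were not called in any comparison, and the medians of the list were −0.17, 1.01 and 1.01. Of 10 partners that bind or coat fibrils, Dcn, the proteoglycan decorin, read 11174, 12105 and 19341 in ZsG minus cTEC, 1297, 2222 and 1043 in ZsG minus mTEC and 1264, 987 and 1323 in ZsG plus. Against ZsG minus cTEC it was called lower for both other groups, at −3.25 ± 0.55 for ZsG minus mTEC (adjusted p = 0.0455) and −3.54 ± 0.55 for ZsG plus (adjusted p = 0.0258). Dcn also belongs to the fibroblast markers above. Sparc, a chaperone-like collagen binder, read 11864, 10238 and 17350 in ZsG minus cTEC, 5359, 6805 and 4117 in ZsG minus mTEC and 2257, 73.0 and 1358 in ZsG plus, without a call (−4.40 ± 1.13 for ZsG plus against ZsG minus cTEC, adjusted p = 0.0899).

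Set against ZsG minus cTEC, the differences of the fibril partners were below 0 for 10 of 10 in ZsG plus and 9 of 10 in ZsG minus mTEC, with medians of −2.20 and −1.35 beside −0.14 and 0.09 for all genes. The 13 measured basement membrane partners, such as laminins and nidogens, had medians of −1.38 and −1.01 in these comparisons, with no gene called. At an unadjusted p under 0.05, 5 and 2 of them were lower and 0 higher, against 11.3% and 3.9% of all genes lower. In ZsG plus against ZsG minus mTEC 2 of them were lower, against 10.2%. Lamb1, a laminin chain and the brightest of them, read 10248, 6264 and 7174 in ZsG minus cTEC, 4262, 5022 and 2245 in ZsG minus mTEC and 4239, 1781 and 1688 in ZsG plus, and Agrn, the proteoglycan agrin, differed from ZsG minus cTEC by −0.88 ± 0.57 in ZsG plus and by −1.03 ± 0.57 in ZsG minus mTEC. The number of genes called of all 18194 depended on the arrays used. In ZsG plus against ZsG minus cTEC, where 317 passed, 0 did so without replicate 1 or replicate 2 of ZsG minus cTEC, 23 without its replicate 3, 51 to 81 without 1 of the ZsG minus mTEC arrays and 474 to 735 without 1 of the ZsG plus arrays. Between the ZsG minus groups, where 114 passed, 0 did so without any 1 of the 6 arrays compared and 129 to 304 without 1 of the ZsG plus arrays. Fitted with only the 6 arrays compared, 0 genes passed in both ZsG plus comparisons and 548 between the ZsG minus groups. Array weights left 0 for ZsG plus against ZsG minus mTEC, 37 against ZsG minus cTEC and 1220 between the ZsG minus groups. The ZsG plus calls above thus rest on a spread estimated over all 3 groups together.

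Calls for single collagens appeared under some settings of the analysis, counted here by the brightest probe set of a gene or by the mean of its probe sets. With the mean of a gene's probe sets in place of the brightest, limma called Col6a2 lower in ZsG plus against ZsG minus mTEC (−3.58, adjusted p = 0.0452) and ZsG minus cTEC (−3.79, adjusted p = 0.017), Col5a2 lower in ZsG plus against ZsG minus cTEC (−3.58, adjusted p = 0.0469) and Col3a1 lower between the ZsG minus groups (−5.36, adjusted p = 0.0192). The difference of Col3a1 between the ZsG minus groups was the most often called, in 5 of 19 settings, with adjusted p from 0.007 to 0.304. For ZsG plus against ZsG minus cTEC, Col13a1 passed in 3 of 18 settings, Col6a2 in 2 of 19, and Col1a2, Col3a1, Col5a2 and Col15a1 in 1 of 19 each, and between the ZsG minus groups Col1a2 and Col9a2 passed in 2 each and Col6a4 in 1.

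**Figure D5:**
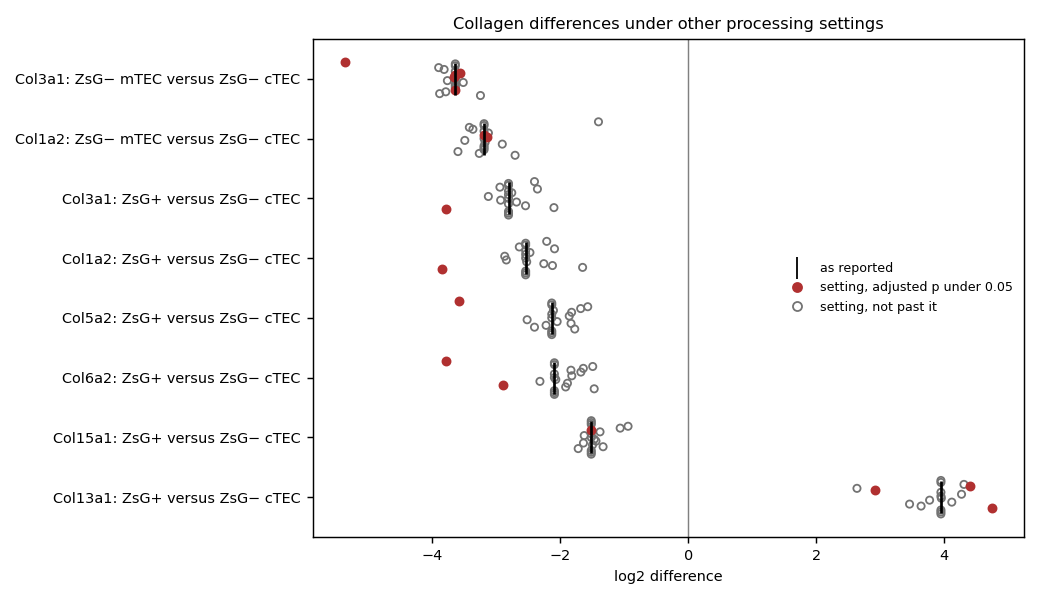
Log2 difference of 8 collagen results as reported (black bars) and under each other setting (circles), filled in red where limma's adjusted p was under 0.05. The sign held in all settings for all 8, while calls appeared in at most 5 of 19 settings, for Col3a1 between the ZsG minus groups.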

How the data were processed

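RNA from 9 samples was measured on Affymetrix Mouse Genome 430 2.0 arrays, 1 per sample. The authors deposited probe set intensities on a linear scale. Without the outer 2% at each end, every array has a mean of 1250, as a check of the values showed. On the software and detection calls, nothing was given in the sources used here. Symbols were read from the platform's annotation, where 34958 probe sets name 1 gene and were used, 932 name several and 9211 none. Promoter sequences are RefSeq's (GRCm38.p6).

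Log2 intensities, without an offset, were fitted with limma 3.58.1 in R 4.3.3 (lmFit and eBayes, 6 residual and 3.28 prior degrees of freedom) over all 9 arrays. The two-sided p-values were adjusted by Benjamini-Hochberg over 18194 genes, with a threshold of 0.05. Values after ± are standard errors unless called SD. Since the labels name no animals behind the replicates, p-values measure only the spread between the samples, possibly a technical one. No pair of arrays held identical values. Same-numbered arrays did not deviate together (r −0.015 to 0.0132 over 9 pairs, across genes), so no pairing by number was seen. A shared source that moves only a few genes would not show in this check, so pairing is not excluded. Only the limma fit was tested on simulated data with known changes, and the number of arrays limits the precision.

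The members and gene lists were chosen with earlier results of these data known. Array values are given for collagens past the threshold, for the 10 largest differences per comparison without overlap and with the higher group mean above the bacterial controls, and for the 10 brightest; some others are named in addition. Of each pathway list, called members and up to 2 of the brightest others are named. Alternatives covered the probe set, the filter, the scale, a floor of 100, an offset of 50, the arrays fitted, array weights, the replicate block and each array left out. Figures were drawn with matplotlib 3.10.9.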

Additional observations from a re-analysis of the deposited data

How the results depend on the processing

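Precision was limited by 3 arrays per group and by the wide spread within ZsG plus. With 0 collagens called as reported, other settings called few. Genes were counted by their brightest probe set where all probe sets were tested; the second probe sets of Col6a2 (both ZsG plus comparisons) and Col3a1 (between the ZsG minus groups) called there are not in these counts. For ZsG plus versus ZsG minus mTEC the count was 1 with the mean of all probe sets and 0 in the other 18 settings. For ZsG plus versus ZsG minus cTEC it was 2 with the mean of all probe sets, 1 with median centring, 1 with the floor, 1 with the offset and 0 in 13 settings, and 0 to 3 with each array left out (1 without ZsG plus replicate 1, 3 without replicate 3). Between the ZsG minus groups it was 1 with the mean of all probe sets, 1 with the offset, 3 with only the 6 arrays compared, 4 with array weights and 0 in 14 settings, and 0 to 1 with each array left out (1 without ZsG plus replicate 3). The filter on dim probe sets left 22 collagens, with 0 called. With the replicate block it was 0, 0 and 0, and the block left 0, 16 and 0 genes called over all 18194, against 40, 317 and 114. Scaling moved the balance of all calls: for ZsG plus versus ZsG minus cTEC 109 genes were higher and 208 lower as reported, 141 and 124 after quantile normalization and 158 and 113 after median centring; for ZsG plus versus ZsG minus mTEC 3 and 37, 4 and 11, and 1 and 2; between the ZsG minus groups 96 and 18, 149 and 29, and 38 and 10. Those scalings moved the median of all genes from −0.33 to −0.068 and 0.30 for ZsG plus versus ZsG minus mTEC and from −0.14 to 0.11 and 0.32 for ZsG plus versus ZsG minus cTEC. Over the 19 settings the count of all genes called ran from 0 to 230, 0 to 862 and 0 to 1220 for these comparisons and the one between the ZsG minus groups. Of the 60 differences of the 20 named collagens, 18 changed sign under some setting, none of them called; the cause was not tested. For ZsG plus versus ZsG minus mTEC these were, with the mean of all probe sets, Col1a2 (−0.81), Col5a3 (−0.12), Col20a1 (−0.61) and Col27a1 (0.67), Col27a1 also with quantile normalization (0.00022) and median centring (0.43), and Col4a2 with array weights (−0.068). With an array left out they ranged from −0.18 to 0.98 for Col1a1, −0.66 to 1.54 for Col1a2, −0.14 to 1.54 for Col3a1, −0.40 to 1.10 for Col4a2, −1.74 to 0.0085 for Col4a5 and −0.79 to 0.10 for Col27a1. For ZsG plus versus ZsG minus cTEC, Col4a2 turned with median centring (0.016) and Col19a1 with the mean of all probe sets (0.16), and with an array left out Col2a1 ranged from −1.04 to 1.08, Col4a2 from −0.94 to 0.57, Col19a1 from −1.97 to 0.022 and Col27a1 from −0.53 to 0.36. Between the ZsG minus groups, Col4a6 turned with the mean of all probe sets (−1.48) and the floor (−0.016), and with an array left out ranged from −0.95 to 2.67, Col5a2 from −0.032 to 1.38, Col6a2 from −0.41 to 0.22, Col15a1 from −0.17 to 0.055, Col19a1 from −0.019 to 1.97 and Col27a1 from −0.21 to 0.66.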
